A study of Mus musculus with 6 samples.

Results

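The HoxB cluster holds 9 of the homeobox genes measured here, Hoxb1 to Hoxb9, and all 9 have a row among the 17523 entries of the deposited count table. They were taken by symbol. RNA was sequenced from FACS-sorted bone marrow cells of C57BL/6 mice, which the series calls hematopoietic stem cells (HSCs). There were 3 wild-type (WT) libraries and 3 libraries of the NHD13 mutant, a mouse used to model myelodysplastic syndrome, in which blood cells form poorly. It carries NUP98-HoxD13, where part of a nuclear pore protein is joined to a Hox protein. The sources used here do not give the age of the mice, the surface markers of the sort, the promoter of the fusion or the number of animals per library. The p-values below therefore measure the spread between these libraries, which may be technical.

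Hox genes encode transcription factors that bind DNA through a homeodomain, usually together with PBX and MEIS partners. The genes of a cluster lie side by side on the same strand, and in the embryo those at the Hoxb1 end are switched on earlier and further forward in the body than those at the Hoxb9 end. In blood, Hoxb4 is known for expanding stem cells when it is overexpressed, Hoxb5 as a marker of long-term stem cells, and Hoxb6 and Hoxb8 for driving the growth of myeloid progenitors when they are forced on. The comparison asks how these genes differ between NHD13 and WT cells.

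In NHD13 Hoxb5 to Hoxb8, on one side of Hoxb4, went from near 0 to 8 or more counts in each NHD13 library, Hoxb3 on its other side rose about 3-fold, and Hoxb4 itself, which lies between them, did not differ beyond the spread of its libraries. Of the 9 genes, 5 had enough reads to be tested, and 4 of these rose (Hoxb3, Hoxb6, Hoxb7 and Hoxb8) and 0 fell. Of all 12013 genes tested, 30.3% were called, 15.0% higher and 15.3% lower. Hoxb6, Hoxb7 and Hoxb8 did not reach 10 counts in any WT library and passed the filter on low counts only through NHD13, so they had to be higher to be tested at all.

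The 9 genes cover 96.8 kb of chromosome 11 (mm10, GENCODE vM21, 96271457 to 96368256). All 9 are read from the plus strand, from Hoxb9 at the lower coordinates to Hoxb1. Hoxb13, an outer gene of the HoxB cluster, has no row here, so its level is not known and this span leaves it out. Hoxb4 (96318267 to 96321638) is separated from Hoxb3 (96323326 to 96347930) by 1.69 kb and from Hoxb5 (96303336 to 96306121) by 12.1 kb. Hoxb8 (96281905 to 96285315), Hoxb7 (96286623 to 96290162), Hoxb6 (96292476 to 96301569) and Hoxb5 stand in a row with gaps of 1.31 to 2.31 kb. Hoxb9 (96271457 to 96276595) lies 5.31 kb before Hoxb8. Hoxb2 (96350525 to 96354012) and Hoxb1 (96365752 to 96368256) follow Hoxb3.

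**Figure D1:**
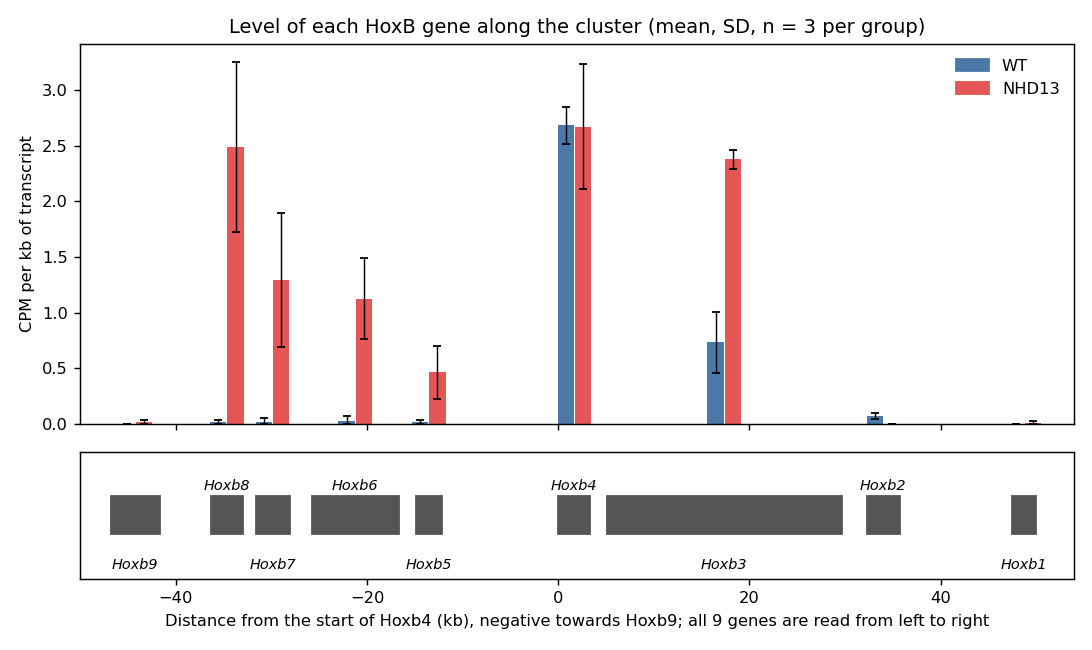
Upper panel, mean level of each HoxB gene in CPM per kb of its longest transcript, for WT (blue) and NHD13 (red), with the SD over 3 libraries (bars end at 0). Lower panel, the genes to scale by distance from the start of Hoxb4. Hoxb4 stands at 2.68 and 2.67 CPM per kb in the groups, and Hoxb5 to Hoxb8 are near 0 in WT only.

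The starts of Hoxb4 and Hoxb8 are shown because Hoxb8 had the largest and Hoxb4 the smallest fitted change of the 5 tested members. RefSeq (GRCm38.p6) gave a promoter for 3 of the 9 members, Hoxb8, Hoxb4 and Hoxb1. The 250 bases before the start, on the plus strand at chr11:96318017-96318266 for Hoxb4 and chr11:96281655-96281904 for Hoxb8, read as follows, with matches to the motifs named in the next paragraph in capitals.
Hoxb4: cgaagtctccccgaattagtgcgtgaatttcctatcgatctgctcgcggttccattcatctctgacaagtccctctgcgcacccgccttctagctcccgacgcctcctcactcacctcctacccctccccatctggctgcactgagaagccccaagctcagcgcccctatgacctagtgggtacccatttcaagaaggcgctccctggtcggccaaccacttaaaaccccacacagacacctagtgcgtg
Hoxb8: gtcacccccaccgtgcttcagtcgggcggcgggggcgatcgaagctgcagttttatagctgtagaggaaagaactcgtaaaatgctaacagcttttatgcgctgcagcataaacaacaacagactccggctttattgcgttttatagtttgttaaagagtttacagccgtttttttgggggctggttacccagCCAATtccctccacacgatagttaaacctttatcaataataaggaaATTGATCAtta

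Both strands were searched for CCAAT (the box bound by NF-Y), CACGTG (the E-box bound by USF), TGATNNAT (a site for HOX with PBX), TAATTA (a core for homeodomains) and the retinoid receptor repeat, a pair of AGGTCA sites on the same strand with 5 bases between them. The Hoxb8 window holds CCAAT from -57 to -53 and the HOX-PBX letters on the minus strand from -11 to -4, counted back from the start, and these matches do not overlap. CCAAT is found in 33.9% and TGATNNAT in 7.68% of the 32851 promoters of the same length. The Hoxb1 window holds both motifs too, with CCAAT on the minus strand from -171 to -167 and from -117 to -113. Its HOX-PBX letters lie on the plus strand from -162 to -155. Hoxb1 had 0 counts over the WT group and 1 over NHD13, so these motifs do not mark the genes that rose. None of the 5 motifs was found in the Hoxb4 window, which says only that these letters are not in these 250 bases. The window of Hoxb4 is 58.0% G and C and that of Hoxb8 44.4%, where the median promoter has 52.4%.

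Levels are given as CPM, library-size-scaled counts, where TMM adjusts each library's total so that most genes are level. Total counts were 12541538 to 14388772, so that 1 count was worth 0.0691 to 0.0791 CPM and the limit set by a count of 0 (3 counts, counting error only) was 0.207 to 0.237 CPM. The label check held: the row of the fusion had 0 counts in the 3 WT libraries and 185, 179 and 167 in NHD13 replicates 1 to 3. The libraries differed in sex-linked RNA. Xist, the RNA of the inactive X, was at 463, 1020 and 1078 CPM in WT replicates 1 to 3, at 2.55 and 1.95 CPM in NHD13 replicates 1 and 2 and at 683 CPM in NHD13 replicate 3, while the Y-linked Ddx3y was at 38.4 to 113 CPM in all 6. Kit, the stem cell factor receptor, had means of 254 CPM (WT) and 227 CPM (NHD13), but the HSC markers Procr (0.350 and 0.168 CPM) and Fgd5 (0.0960 and 0.0924 CPM) were near 0 in both groups. The 12 HSC markers, Hoxb5 among them, summed to 461 to 483 CPM in WT and 281 to 335 CPM in NHD13. Of the 9 tested, 4 were lower, namely Cd34, which had the largest fall in CPM (175 to 47.0 CPM), Hlf, Tek and Ly6a. Mecom was the 1 that was higher (log2 2.73), and Kit, the largest part of the sum in both groups, was not called. Markers of mature neutrophils (9 of 10 in the table, none at 0) summed to 32900 to 50870 CPM in WT and 22460 to 31150 CPM in NHD13, and 8 of them were lower in NHD13. Mast cell and basophil markers (5 of 5) fell from 224 to 527 CPM down to 18.0 to 38.9 CPM. Dendritic markers (5 of 5) fell from 307 to 446 CPM down to 65.9 to 118 CPM. Those of monocytes and macrophages (5 of 6 in the table, 5 lower) fell from 3358 to 5174 CPM down to 2228 to 2567 CPM. Erythroid markers (5 of 8 in the table) went from 160 to 188 CPM up to 252 to 458 CPM, with Klf1 and Epor among those higher. The part of these shifts in the HoxB values was not tested, and in bulk RNA fewer cells that express a gene and less RNA per cell cannot be told apart.

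Hoxb4 had the most reads of the HoxB genes in each WT library. It had 82, 92 and 105 counts in WT replicates 1 to 3 and 93, 77 and 119 in NHD13 replicates 1 to 3, which is 6.48, 6.85 and 7.32 CPM against 6.98, 5.36 and 8.22 CPM. The NHD13 libraries lay on both sides of the WT libraries, with NHD13 replicate 2 the lowest and NHD13 replicate 3 the highest of the 6. The means were 6.88 CPM ± 0.419 in WT and 6.85 CPM ± 1.44 in NHD13 (SD, n = 3 each). The 95% interval of the fitted change ran from 0.747-fold to 1.33-fold (log2 -0.01, SE 0.18, edgeR quasi-likelihood adjusted p = 0.978). The exons of Hoxb4 share no base with those of another annotated gene.

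Hoxb3, the neighbour at 1.69 kb, had 17, 39 and 40 counts in WT and 97, 110 and 113 in NHD13, or 1.34, 2.90 and 2.79 CPM against 7.28, 7.65 and 7.81 CPM. The groups did not overlap, and WT replicate 1 was the lowest. The mean rose from 2.35 CPM ± 0.869 to 7.58 CPM ± 0.274 (SD, n = 3 each), 3.20-fold with a 95% interval of 2.16-fold to 4.76-fold (log2 1.68, SE 0.25, adjusted p = 0.00272 by edgeR). The groups did not overlap for 4 of the 5 tested members, Hoxb4 being the exception, and for 46.1% of all tested genes. For Hoxb6, Hoxb7 and Hoxb8 the filter fixed this, as no WT library reached 10 counts. Their part of that count is therefore no result. Of the 4251 exonic bases of Hoxb3, 2250 also belong to the antisense gene Hoxb3os, which has no row here, and since the strand setting is not given the reads of these genes cannot be told apart.

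Hoxb8, which was found as a gene switched on by the insertion of a retrovirus-like element in a myeloid leukaemia line, changed most. It had 1, 0 and 1 counts in WT replicates 1 to 3 and 83, 68 and 126 counts in NHD13 replicates 1 to 3. In CPM these were 0.0791, 0 and 0.0697 in WT and 6.23, 4.73 and 8.71 in NHD13. With 2 counts over the WT group the ratio was 133, with an exact 95% counting interval of 36.4 to 1102. The edgeR fit gave a log2 change of 6.81 (SE 0.53, adjusted p = 0.000141), and 15 of the 12013 tested genes had a larger fitted rise. The NHD13 mean was 6.55 CPM ± 2.01 (SD, n = 3), with NHD13 replicate 3 the highest, and the groups were far apart.

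Hoxb6 and Hoxb7 lie between Hoxb8 and Hoxb5 and had the same pattern at a lower level. Hoxb6 had 0, 2 and 0 counts in WT and 35, 20 and 38 in NHD13, a mean of 2.21 CPM ± 0.713 in NHD13 (n = 3). Its ratio was 44.6, with a counting interval of 12.0 to 374, and its edgeR adjusted p was 0.00161. Hoxb7 had 0, 1 and 0 counts in WT and 18, 16 and 37 in NHD13, a mean of 1.67 CPM ± 0.775. Its ratio was 68.1, with a counting interval of 11.8 to 2725, and its adjusted p was 0.00211 by edgeR. For both genes every NHD13 library lay above every WT library, as the filter required. The few WT reads of both genes came from WT replicate 2, and without that library WT was at 0, so that the fitted log2 changes went from 5.24 to 7.94 for Hoxb6 and from 5.64 to 7.55 for Hoxb7.

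Hoxb5 missed the filter because NHD13 replicate 2 had only 8 reads. Its counts were 1, 1 and 0 in WT and 24, 8 and 22 in NHD13, and the ratio of NHD13 to WT was 25.9 (counting interval 6.83 to 219). The means were 0.0512 CPM ± 0.0444 and 1.29 CPM ± 0.653 (n = 3 each), and the groups did not overlap. With a minimum count of 3 in place of 10, Hoxb5 entered the edgeR test and was higher in NHD13 (log2 4.47, SE 0.78, adjusted p = 0.00414). Of its 2786 exonic bases, 100 are shared with the antisense gene Hoxb5os.

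The outer genes stayed near the detection limit. Hoxb2, which acts in the hindbrain, had 3, 4 and 2 counts in WT and 0 in each NHD13 library, a WT mean of 0.225 CPM ± 0.0799. Set against a floor of 3 counts over the NHD13 group, the WT rate was 3.13-fold higher. That fold leaves out the counting error of the WT rate (exact 95% interval 0.102 to 0.423 CPM), so it is not a bound. Only a test with no filter on low counts included Hoxb2, with an edgeR adjusted p of 0.0343. Of its 3488 exonic bases, 953 are shared with Hoxb3os, whose other exons fall in Hoxb3, a gene that went the other way. Hoxb9 had 0 counts in WT and 1, 1 and 0 in NHD13, and Hoxb1, the hindbrain gene at the far end, had 0 in WT and 0, 0 and 1 in NHD13. These are at or under the floor, so no fold is given and a difference was not detectable at this depth.

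**Figure D2:**
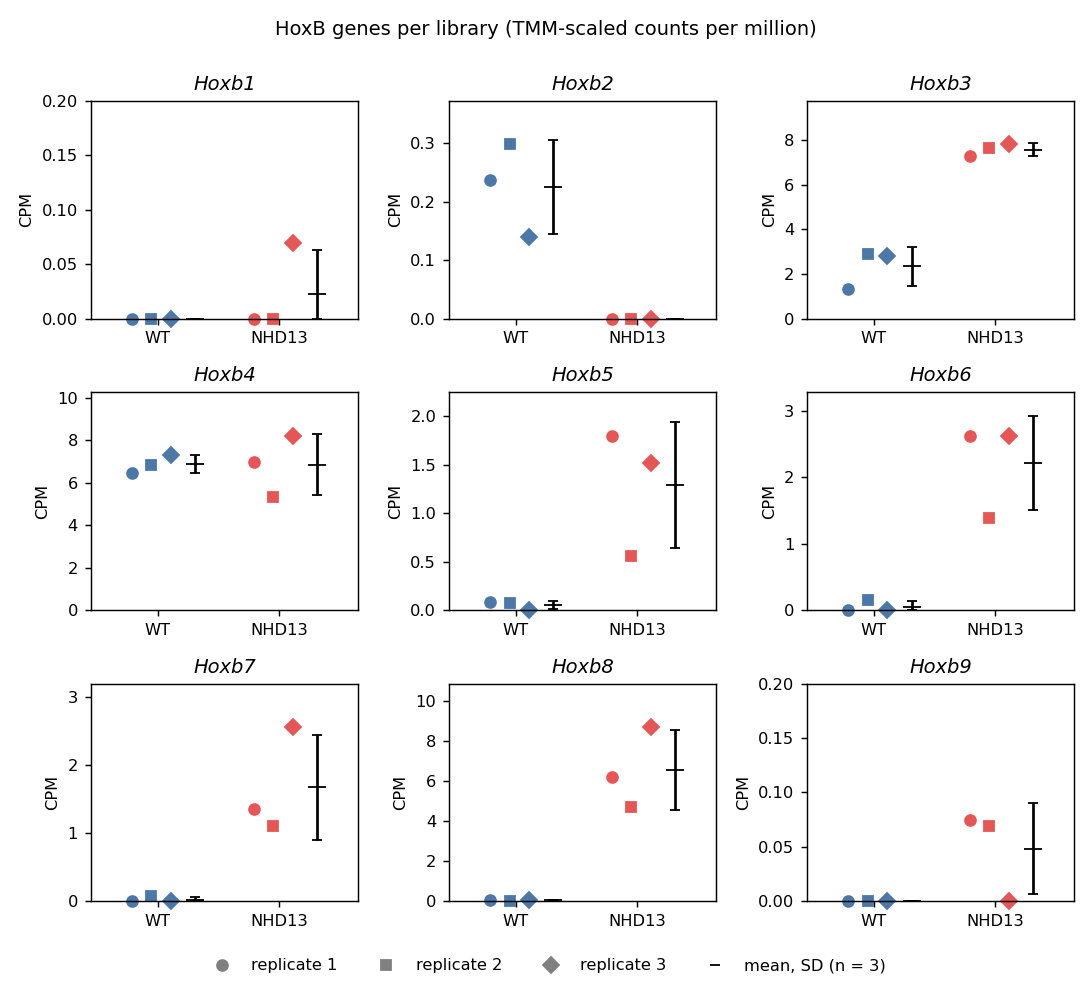
TMM-scaled CPM of each HoxB gene in each library, with its own vertical axis per panel from 0, for WT (blue) and NHD13 (red). Symbols mark replicates and black bars the mean and SD of 3 libraries (cut at 0). The groups overlap for Hoxb4, Hoxb1 and Hoxb9, and Hoxb2 is the gene seen in WT libraries alone.

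Read per kb of the longest transcript, so that genes can be set side by side, WT cells had Hoxb4 at 2.68 CPM per kb ± 0.163 and Hoxb3 at 0.735 ± 0.272 (SD, n = 3), with no overlap between the libraries of these genes, and the other members were at 0.0717 CPM per kb or less. In NHD13, Hoxb4 (2.67 CPM per kb ± 0.561), Hoxb8 (2.49 ± 0.763) and Hoxb3 (2.38 ± 0.0860) did not differ beyond their spread. Hoxb7 (1.30 ± 0.600) and Hoxb6 (1.13 ± 0.363) followed and did not differ beyond their spread either, and Hoxb5 was lower at 0.464 CPM per kb ± 0.234. From Hoxb8 to Hoxb9, across a gap of 5.31 kb, the NHD13 level went from 2.49 to 0.0187 CPM per kb.

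Whether Hoxb4 differs from its neighbours was read from ratios within a library, which do not depend on scaling. These ratios use the counts already given gene by gene, and Hoxb4 was singled out with these data known. They restate those changes and are no separate support. In WT, Hoxb4 took 78.9%, 66.2% and 71.0% of the HoxB counts in replicates 1 to 3, and in NHD13 26.5%, 25.7% and 26.1%. The lowest exact (Clopper-Pearson) 95% bound in WT was 57.7% and the highest in NHD13 31.4%, so the groups were apart beyond counting error. The mean share differed by -45.9 percentage points between NHD13 and WT (72.0% ± 6.39 in WT and 26.1% ± 0.415 in NHD13, SD, n = 3), with an exact two-sided permutation p of 0.1, the smallest that 3 libraries against 3 can give. The log2 ratio of Hoxb4 to Hoxb3 counts was 2.27, 1.24 and 1.39 in WT and -0.06, -0.51 and 0.07 in NHD13, a difference of -1.80 (exact permutation p = 0.1). Hoxb4 therefore had more reads than Hoxb3 in each WT library, while in NHD13 the order varied by library (reads not corrected for length).

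The HoxB counts as a whole were 104, 139 and 148 in WT and 351, 300 and 456 in NHD13. Hoxb5 to Hoxb9 made up 1.79% of them over the WT group (7 of 391 counts) and 44.9% over the NHD13 group (497 of 1107). In CPM, the 5 genes together went from 0.175 ± 0.115 to 11.8 ± 3.79 (SD, n = 3). Hoxb8 alone took 23.7%, 22.7% and 27.6% of the HoxB counts in NHD13 replicates 1 to 3.

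**Figure D3:**
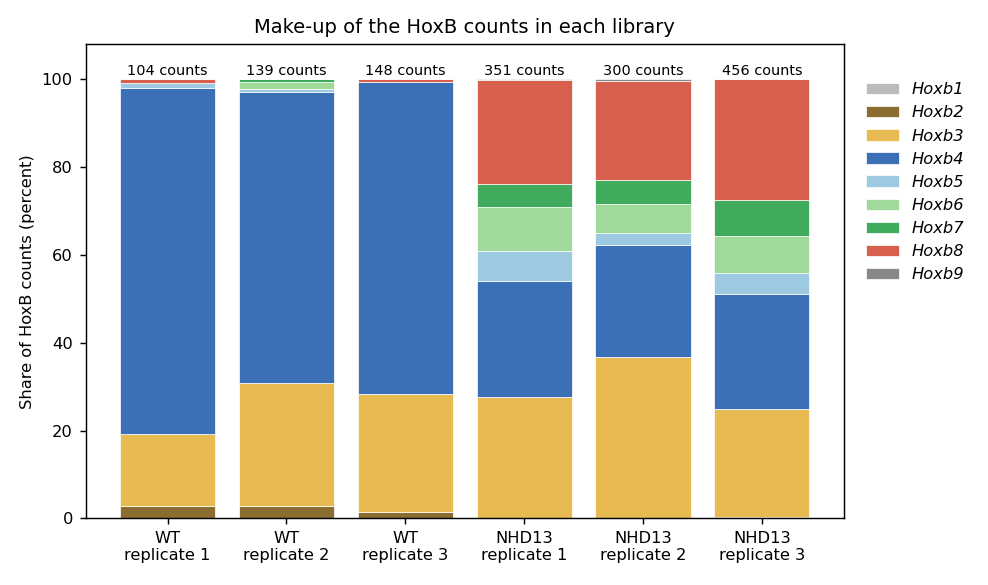
Share of the HoxB counts that each gene takes, in percent, for each of the 6 libraries, with the HoxB total above each bar. Hoxb4 (dark blue) takes 66.2% to 78.9% in WT and 25.7% to 26.5% in NHD13, where Hoxb8 (red) takes 22.7% to 27.6%.

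The calls of Hoxb3, Hoxb6, Hoxb7 and Hoxb8 were kept under all 16 other settings tried, with adjusted p-values of at most 0.0359, 0.0147, 0.0204 and 0.00276. With the share of Y-linked counts as an added term, which left 2.38% of all tested genes called in place of 30.3%, these 4 genes were still higher and Hoxb4 had a log2 change of 0.34 (adjusted p = 0.439 by edgeR). Hoxb4 did not pass the threshold under any of the 16, and its log2 change ran from -0.17 without NHD13 replicate 3 to that value. All settings reuse the same libraries, in which Hoxb6, Hoxb7 and Hoxb8 were near 0 in WT. For those genes the direction could hardly change with the setting. The Y-linked share was 0.0194%, 0.0109% and 0.0113% of counts in WT replicates 1 to 3. In NHD13 replicates 1 to 3 it was 0.0248%, 0.0280% and 0.0177%. This share thus went partly with the group, so calls lost with the Y-linked term, here and below, cannot be assigned to sex.

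**Figure D4:**
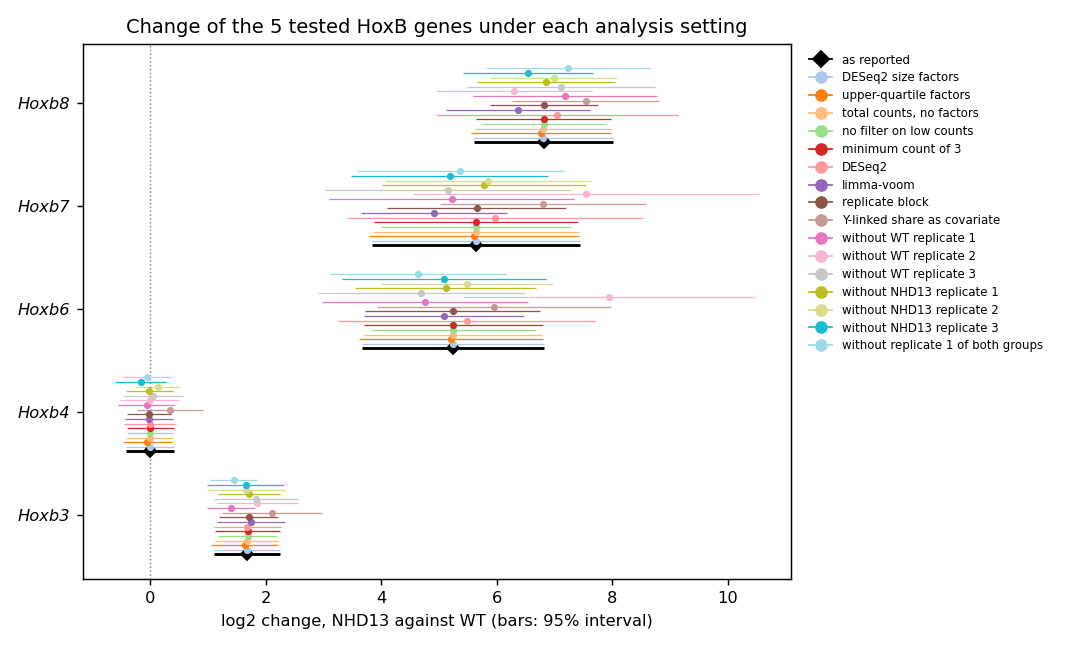
log2 change of the 5 tested HoxB genes in NHD13 against WT with its 95% interval, as reported (black) and under each of the 16 other settings (colours). Hoxb4 stays between -0.17 and 0.34 and the other genes stay above 0, Hoxb3 at 1.39 to 2.11 and Hoxb8 at 6.30 to 7.54.

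Entries inside or beside the cluster were few. Mir10a, the host position of a microRNA 1.10 kb before Hoxb4, had 0, 4 and 1 counts in WT and 3, 0 and 1 in NHD13, which is too few to compare. Gm53, a noncoding gene beyond Hoxb9, had 0 counts in every library. Within 500 kb of the cluster, 17 other entries have a row and 11 were tested, of which 2 rose and 2 fell, a share near the 30.3% called over all genes. Their median log2 change was -0.04, from -1.56 to 0.91, where the median over all tested genes was 0.00. The nearest tested gene on the Hoxb9 side was Atp5g1, a subunit of the mitochondrial ATP synthase, which went from 124.5 CPM ± 5.19 to 167.5 CPM ± 18.8 (log2 0.43, SE 0.09, edgeR adjusted p = 0.00897), a call lost with the Y-linked term (log2 0.45, adjusted p = 0.138). On the Hoxb1 side it was Snx11, a sorting nexin, at 45.8 CPM ± 0.932 and 39.3 CPM ± 2.38 (log2 -0.22, adjusted p = 0.0551 by edgeR). Snx11 passed the threshold without NHD13 replicate 1 (adjusted p = 0.0302), without replicate 1 of both groups (0.0315) and with upper-quartile scaling (0.0303).

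**Figure D5:**
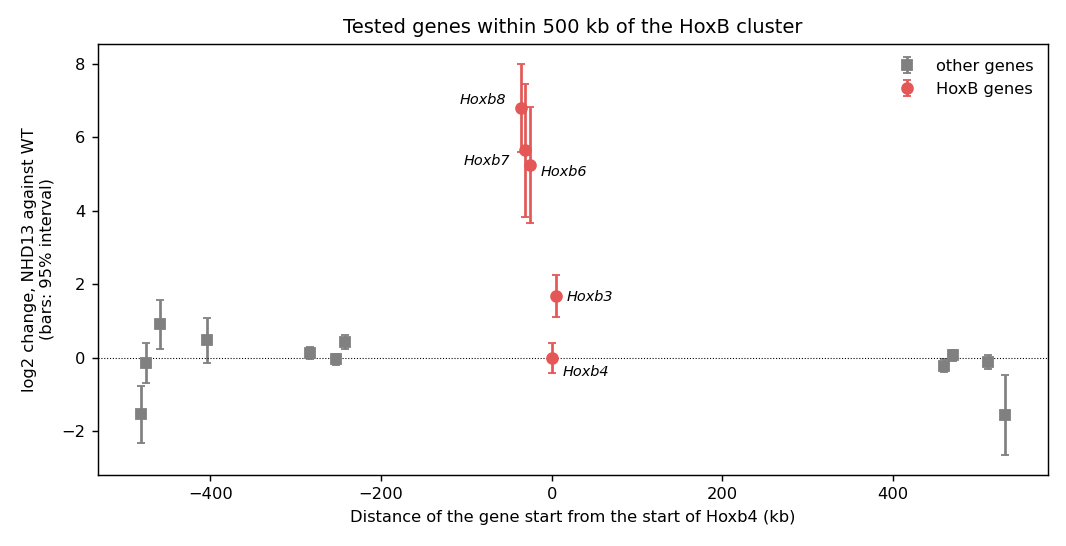
log2 change in NHD13 against WT, with its 95% interval, of the tested genes by distance of their start from that of Hoxb4 in kb, HoxB genes in red and other genes in grey. Hoxb6, Hoxb7 and Hoxb8 lie at 5.24 to 6.81, Hoxb4 at -0.01, and the 11 other genes between -1.56 and 0.91.

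The paralogs, the genes at the matching positions of the other Hox clusters, were set beside the members. Of 18 paralogs 17 have a row, 13 were tested and 13 rose. No WT library had 10 counts for 8 of these 13, which like Hoxb8 passed the filter only through NHD13. With the Y-linked term 10 of 13 paralogs were called higher. Without NHD13 replicate 2 or 3 it was 12 of 13, and without WT replicate 2 or 3 it was 13 of 14. At the position of Hoxb4, Hoxa4 had 16, 5 and 4 counts in WT and 23, 24 and 28 in NHD13, Hoxc4 had 0 in WT and 107, 140 and 137 in NHD13, and Hoxd4 had 0, 0 and 1 against 10, 23 and 13. At that of Hoxb8, Hoxc8 went from 0, 1 and 0 counts to 15, 36 and 22. Hoxd8 went from 0 in each WT library to 17, 49 and 24. At that of Hoxb3, Hoxa3 went from 0.718 CPM ± 0.281 to 7.45 CPM ± 0.237 (n = 3). Hoxd3, at the same position, stayed near 0, with 0 counts in each WT library and 0, 0 and 1 in NHD13. Counts of the HoxB genes made up 35.3%, 39.6% and 46.7% of all Hox counts in WT and 15.5%, 11.9% and 17.3% in NHD13.

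The genes that act on Hox chromatin or with HOX proteins are given by list. Over all tested genes 30.3% were called, 15.0% higher and 15.3% lower, as a background for these counts. Of 21 listed activators, such as the menin complex and the H3K79 methyltransferase, 19 were tested. Kmt2a and Kmt2d have no row here and could not be assessed. Of the 19 tested, 4 rose and 0 fell (median log2 change 0.10). Among those that rose were the methyltransferase gene Dot1l (log2 0.42, adjusted p = 0.00571) and Hcfc1 (log2 0.37, adjusted p = 0.00468 by edgeR). The activators gave 2 or 3 higher and 0 lower when any library except NHD13 replicate 1 was left out, 6 and 2 without NHD13 replicate 1, 2 and 0 with upper-quartile scaling, and 0 and 0 with the Y-linked term. Of 21 tested Polycomb genes, whose products repress Hox clusters, 2 rose and 2 fell (median -0.01), with Bmi1 at log2 0.23 (adjusted p = 0.0238 by edgeR) and Pcgf2 at -0.77 (adjusted p = 0.0292). With the Y-linked term none of these 4 genes was called (adjusted p = 0.12, 0.113, 0.26 and 0.231), while their log2 changes were 0.42, 0.37, 0.23 and -0.82 and their SEs were larger. The calls of Bmi1 and Pcgf2 were also lost when any library except NHD13 replicate 1 was left out (adjusted p = 0.0521 to 0.108), and DESeq2 did not call Pcgf2 (adjusted p = 0.0516).

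Of 11 tested factors described at HoxB promoters and enhancers, 0 rose and 3 fell (median log2 change -0.06), a share near that of all genes. Of these factors 1 was lower when any library except NHD13 replicate 1 was left out, 1 was higher and 4 lower without NHD13 replicate 1, and 0 were called with the Y-linked term. The retinoic acid receptor gene Rara went from 9.05 CPM ± 1.39 to 5.18 CPM ± 0.474 (log2 -0.81, edgeR adjusted p = 0.00885), and Usf1, an E-box factor reported at the Hoxb4 promoter, from 51.1 CPM ± 1.41 to 40.1 CPM ± 4.96 (log2 -0.35, adjusted p = 0.0249). Both calls were lost with the Y-linked term (adjusted p = 0.196 and 0.271, log2 changes -0.71 and -0.33), and that of Usf1 without any 1 of 5 libraries, NHD13 replicate 1 being the exception (adjusted p = 0.0501 to 0.0956). Nfya, Nfyb and Nfyc, the subunits of the CCAAT factor, were not past the threshold, with log2 changes of -0.14, 0.00 and 0.07.

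Among 7 tested cofactors of HOX proteins, 1 rose and 2 fell (median log2 change -0.09). Pbx3 went from 5.68 CPM ± 0.445 to 55.9 CPM ± 5.80 (log2 3.30, SE 0.12, edgeR adjusted p = 4.9e-06). The rise of Pbx3 was called under each of the settings tried.

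The genes most like a member over the 6 libraries were found by the distance between log2 CPM values centred on their means, among 12012 other tested genes. Nearest to Hoxb4 were Prss36, Parp14 and Chid1 (distances 0.204, 0.223 and 0.229, where the median gene was at 0.626). Nearest to Hoxb3 were Isg15, Ly6g5b and Sowaha (0.447, 0.642 and 0.729, median 2.27), and nearest to Hoxb8 were Klhl4, Hoxc6 and Tmem47 (0.95, 1.11 and 1.24, median 6.29). Klhl4, a Kelch family gene, went from 0.296 CPM ± 0.0692 to 11.8 CPM ± 2.90 (n = 3). Hoxb6 and Hoxb7 ranked 20 and 22 in likeness to Hoxb8, which like them was near 0 in WT. In likeness to Hoxb3, Hoxb4 ranked 6176, Hoxb7 6266, Hoxb6 9146 and Hoxb8 11761. In likeness to Hoxb8, Hoxb3 ranked 81 and Hoxb4 6004. The distance grows with the difference in size of change, so genes that rise together by unlike amounts can rank far apart.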

How the data were processed

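RNA of 6 libraries (3 WT, 3 NHD13) was analysed from raw counts per gene, which the authors deposited without normalisation. The submitters' processing notes name mm10, HTSeq 0.5.4p3 and Bowtie2 2.2.1. The sources used here do not give the annotation, the strand setting or the read filters. The 9 members and the gene lists were chosen with earlier results of these data known. Counts were tested in edgeR 4.0.16 (R 4.3.3): filterByExpr with a minimum count of 10, TMM scaling, robust quasi-likelihood F test with the group as its term, two-sided, Benjamini-Hochberg over all 12013 genes tested, threshold 0.05. SE is the log2 change over the square root of F. The procedure was tested on simulated data. Members below the filter are given by counts with exact 95% intervals, which cover counting error only, as the reads carry no molecular identifiers. Ratios within libraries were compared by exact permutation. Alternatives were DESeq2 1.42.0, limma-voom 3.58.1, other scalings and filters, leaving out libraries, a replicate block and a Y-linked covariate. GENCODE vM21 (GRCm38, the same build as mm10) gave positions, and RefSeq gave promoters. Named genes are the members, up to 2 of each list with the lowest p among those past the threshold, paralogs, the nearest tested flanking genes and the 3 genes most like Hoxb3, Hoxb4 and Hoxb8. Nfya, Nfyb, Nfyc, Kit, Procr, Fgd5, Cd34, Hlf, Tek, Ly6a, Mecom, Klf1 and Epor were named after their values were seen. No protein sequences were used, and some genes that the rule names are not reported here.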

Additional observations from a re-analysis of the deposited data

How the results depend on the processing

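Over all tested genes, 1799 were higher and 1839 lower, and leaving out 1 library gave 760 to 3012 higher and 957 to 2966 lower genes. NHD13 replicate 1 decided the upper end (3012 and 2966 when it was left out). Omitting any of the other 5 libraries lowered the number of higher genes, to 828 and 957 for WT replicate 2, 806 and 978 for WT replicate 3, 760 and 1069 for NHD13 replicate 2, 836 and 1104 for NHD13 replicate 3, and, less, to 1208 and 1615 for WT replicate 1. They were 3244 and 3245 without replicate 1 of both groups and 111 and 175 with the Y-linked covariate, which is the share of Y-linked counts, and upper-quartile scaling gave 1427 and 2132. The cause was not tested.

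Between 4 and 5 HoxB genes were higher when 1 library was left out, Hoxb5 being added where it passed the filter, and with no filter 5 were higher and 1, Hoxb2, was lower. The log2 change of Hoxb4, which was -0.01, was 0.34 with the Y-linked covariate, 0.04 without WT replicate 3 and 0.13 without NHD13 replicate 2, none past the threshold, and leaving out 1 library gave -0.17 to 0.13. The Y-linked covariate gave 5.95 for Hoxb6, 6.80 for Hoxb7 and 7.54 for Hoxb8, limma-voom gave 4.91 for Hoxb7, and leaving out replicate 1 of both groups gave 4.64 for Hoxb6. Without Hoxb3 in the sum, the fall of the Hoxb4 share was -57.2 percentage points in place of -45.9 and the log2 ratio of Hoxb4 to the other HoxB counts moved by -4.98 in place of -2.89, since Hoxb3 is most of the rest in WT. The ratio of Hoxb4 to Hoxb3 has no value without Hoxb3.

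With the replicate number as a block, 2007 genes were higher and 2233 lower, the log2 changes were -0.02 for Hoxb4 and 6.82 for Hoxb8, and no HoxB call changed. Whether the numbers pair the libraries was not decided by the data. Same-numbered libraries correlated at 0.249, 0.0632 and 0.175 in their deviations from the group means, the highest value of each WT library. NHD13 replicate 2, though, was closer to WT replicate 3 (0.149) than to WT replicate 2 (0.0632). Of the lists, Polycomb genes went from 2 higher and 2 lower to 8 and 5 without NHD13 replicate 1 and to 0 and 0 without any other library. Depth limits Hoxb1, Hoxb2 and Hoxb9, which are near the floor of 3 counts.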
